A study of Mus musculus with 6 samples.

Results

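Stromal cells of the bone marrow act on their neighbours largely through secreted growth factors, and 9 such genes are described here: Hgf, Fgf7, Figf, Vegfa, Angpt1, Pdgfa, Fgf2, Hbegf and Vegfc. They were taken by name, as the probe sets whose gene symbol in the authors' deposited table equals one of these names. They make up 9 of the 22349 genes that the table names, and 10 of 35556 probe sets. For Pdgfa, which has 2 probe sets, the one with the higher mean over the 6 arrays was used. The arrays came from mouse bone marrow mesenchymal cells that had been seeded densely, at 2500000 cells, or sparsely, at 15000 cells, in a commercial stem cell medium. RNA was taken 1, 2 and 3 days after seeding, with 1 Affymetrix array per density and day, so that dense and sparse cultures have 3 arrays each. The labels' protocol speaks of independent cell samples, while all 6 titles begin with 1 shared name that the labels do not explain; whether the cells had a common source is not stated. No strain, genotype, age or treatment other than the density is given. The design asks how expression differs between the densities over the 3 days.

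These factors act through receptor kinases on nearby cells. VEGF-A drives the growth of blood vessels, while VEGF-C and VEGF-D, the product of Figf (current symbol Vegfd), act mainly on lymphatic vessels. HGF signals through the receptor MET and FGF7 through an epithelial splice form of FGFR2, so that both carry messages from stroma to epithelium. FGF2 and PDGF-A are mitogens of mesenchymal cells themselves, angiopoietin-1 steadies vessels through the receptor TIE2, and HB-EGF is a membrane-bound ligand of the EGF receptor that proteases release. Several of them bind heparan sulphate, which stores them at the cell surface and in the matrix.

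All values are log2 expression per probe set as deposited, and probe sets are compared only with themselves. Array medians ran from 4.33 to 4.42 in dense and from 4.34 to 4.45 in sparse cultures. The upper quartiles ran from 6.82 to 6.86 in dense and from 6.66 to 6.75 in sparse cultures, so that bright probe sets lay somewhat higher in dense. Lists of mostly bright genes are set beside all tested genes below without a correction for this. Of 11 marker genes of mesenchymal stromal cells, 10 lay above the array medians on all 6 arrays. Markers of other marrow cells were low, with 9 of 12 endothelial, 7 of 11 macrophage, 8 of 8 granulocyte, 8 of 8 lymphocyte and 7 of 9 erythroid and megakaryocyte genes below the medians on all 6 arrays. Among the tested markers, limma called 0 of 9 endothelial, 0 of 5 macrophage, 0 of 4 granulocyte and 0 of 4 lymphocyte genes between the densities. Of all tested genes 11.2% were called, so that 0 calls in lists this short are close to that share. Platelet basic protein, Ppbp, was the single one called of 6 erythroid and megakaryocyte genes (log2 difference 0.93, adjusted p = 0.0185). Of the 11 stromal markers themselves, 6 were higher and 1 lower in dense cultures (all tested genes 8.26% and 2.9%). The mean of the list lay between 8.05 and 8.32 in dense and between 7.27 and 7.39 in sparse cultures. In such bulk cultures, fewer cells of a type and less RNA per cell cannot be told apart.

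The DNA before 4 of the genes is shown because they held the extremes of the result: Hgf had the largest increase and Vegfc the largest decrease in dense cultures, and Vegfa and Figf are the relatives of Vegfc that moved the other way. Each is the 250 bases before the annotated start from the RefSeq promoter table (GRCm38.p6), 5′ to 3′ on the gene's own strand. The windows are chr5:16553245-16553494 (plus strand) for Hgf and chr17:46032378-46032627 (minus strand) for Vegfa. Those of Figf and Vegfc are chrX:164373272-164373521 (plus strand) and chr8:54077282-54077531 (plus strand). Capitals mark matches to 5 short motifs searched on both strands, with overlaps allowed.
Hgf: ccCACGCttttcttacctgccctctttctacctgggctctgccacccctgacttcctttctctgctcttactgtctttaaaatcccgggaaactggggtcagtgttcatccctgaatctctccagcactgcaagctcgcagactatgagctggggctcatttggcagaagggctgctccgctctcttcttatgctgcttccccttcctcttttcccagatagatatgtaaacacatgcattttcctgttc
Vegfa: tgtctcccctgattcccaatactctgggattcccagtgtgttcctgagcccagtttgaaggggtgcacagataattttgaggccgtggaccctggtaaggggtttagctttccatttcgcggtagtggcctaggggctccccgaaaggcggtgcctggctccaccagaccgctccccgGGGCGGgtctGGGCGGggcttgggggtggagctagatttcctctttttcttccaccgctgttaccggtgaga
Figf: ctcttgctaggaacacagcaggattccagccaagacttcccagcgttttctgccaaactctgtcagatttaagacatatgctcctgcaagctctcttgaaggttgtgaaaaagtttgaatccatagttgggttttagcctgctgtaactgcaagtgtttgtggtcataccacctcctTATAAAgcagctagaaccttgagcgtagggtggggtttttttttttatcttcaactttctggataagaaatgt
Vegfc: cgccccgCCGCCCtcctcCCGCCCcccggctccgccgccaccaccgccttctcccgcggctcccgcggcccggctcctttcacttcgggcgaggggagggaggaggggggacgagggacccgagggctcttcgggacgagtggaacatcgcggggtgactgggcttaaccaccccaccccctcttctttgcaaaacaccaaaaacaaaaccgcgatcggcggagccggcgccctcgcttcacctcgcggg

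The motifs were ACGTG and GCGTG, the forms of the core that hypoxia-inducible factors bind, TGACTCA (AP-1), GGGCGG (the GC box) and TATAAA (the TATA box). Vegfa and Vegfc each held 2 GC boxes, which 32.7% of all 32851 RefSeq windows of this length hold at least once. Hgf held 1 GCGTG (28.2% of windows) and Figf 1 TATAAA (12.4% of windows). ACGTG, found in 16.6% of windows, and TGACTCA, found in 4.46%, had no match in these 4 sequences. Windows of 7 of the 9 genes were searched, all but Angpt1 and Hbegf, 10 windows in all. Vegfa, Hgf and Pdgfa have 2 windows each, and for Vegfa and Hgf the one at the start of the annotated gene is shown. The other Vegfa window, at chr17:46025164-46025413 (minus strand), held 1 ACGTG, 1 GCGTG and 1 GGGCGG, and the other Hgf window, at chr5:16553651-16553900 (plus strand), held 0 matches. These matches describe the letters of the windows and nothing more.

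Dense cultures had more mRNA of Hgf, Fgf7, Figf and Vegfa and less of Pdgfa, Fgf2, Hbegf and Vegfc. When limma compared the densities within days, all 8 of these genes passed an adjusted p under 0.05, 4 in each direction, and Angpt1 was too dim to be tested. Among all 16762 tested genes, 11.2% passed, 8.26% higher and 2.9% lower in dense, and 34.3% had an unadjusted p under 0.05. Of the genes that passed, 74.0% were higher in dense, and 54.3% after a further quantile normalization, under which these 8 passed too. The median size of the difference was 1.35 on the log2 scale over the 8 genes and 0.25 over all tested genes. The genes were chosen with earlier results of these data known, so setting them beside all tested genes is no test of the list. The dense and the sparse values of all 9 genes lay apart with no overlap, as did those of 39.9% of the tested genes (20.9% with dense higher and 19% with dense lower). Since no culture was repeated at the same density and day, the error behind each p-value is not that of replicate cultures. It combines the scatter of the gene's 3 daily differences (2 residual degrees of freedom) with a variance that limma estimates from all tested genes. That shared variance counts as 3.69 degrees of freedom and so has the larger weight. Without both day 2 arrays limma called 0 of the 16762 genes, these 8 included (2531 and 8 at an unadjusted p under 0.05), and without both day 1 arrays 6 of the 8 passed.

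**Figure D1:**
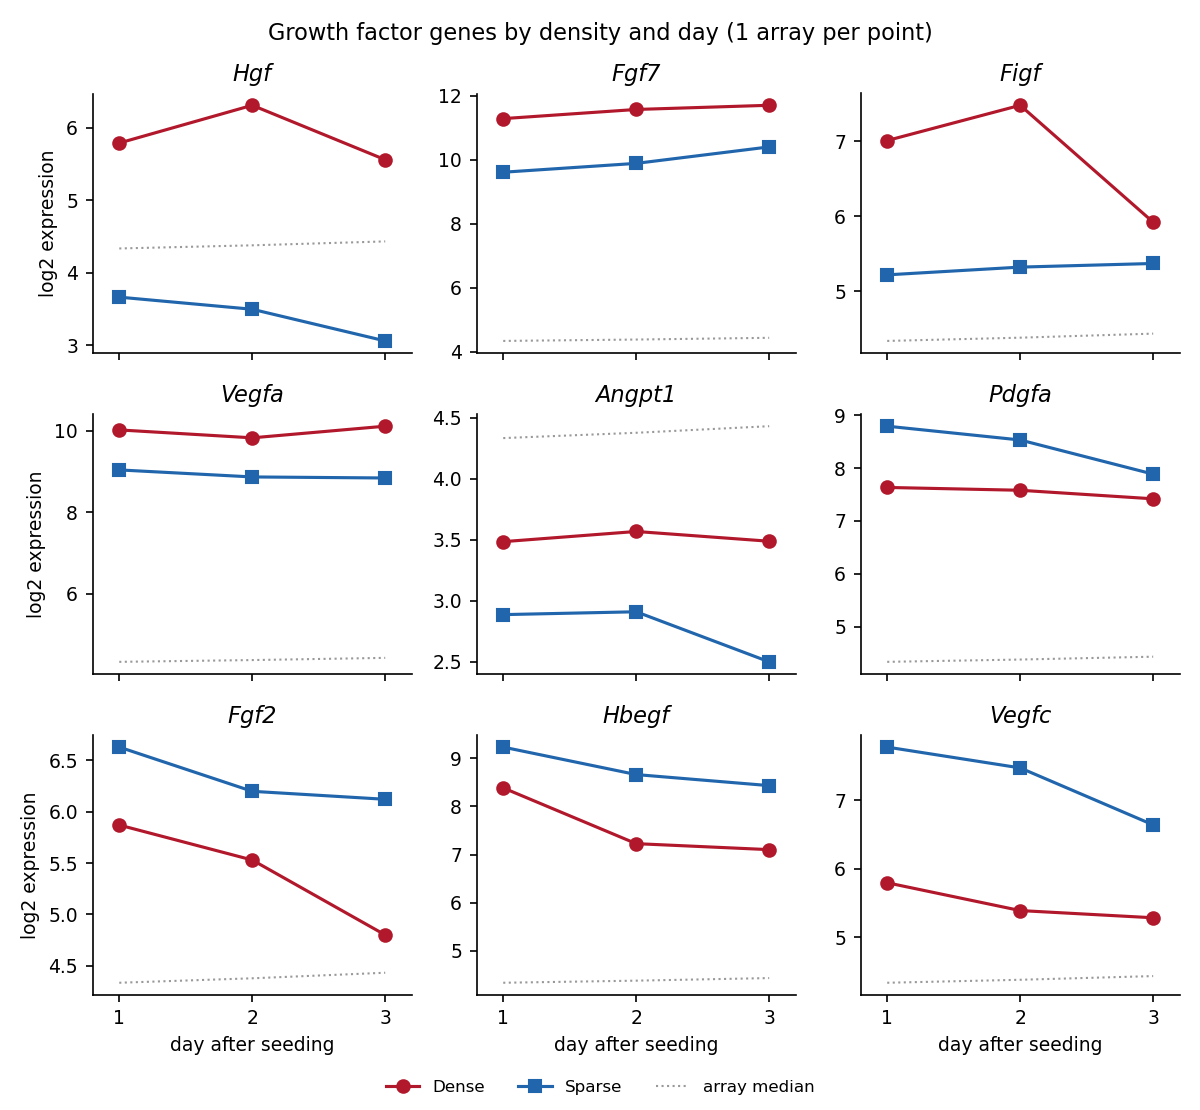
Log2 expression of the 9 genes (y axis) on days 1 to 3 after seeding (x axis), 1 array per point, dense in red circles and sparse in blue squares; the dotted line is the mean of the dense and the sparse array median, and y axes differ between genes. Dense values lie above sparse ones on each day for Hgf, Fgf7, Figf, Vegfa and Angpt1 and below them for the other 4 genes.

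Among the genes that were higher in dense cultures, Hgf (probe set 10519857) differed most. It encodes hepatocyte growth factor, a mitogen and motility factor for epithelial and endothelial cells. Its values were 5.79, 6.31 and 5.56 on days 1, 2 and 3 in dense cultures, against 3.66, 3.49 and 3.06 in sparse cultures. All 3 sparse values lay below the array medians and the one of day 3 below the filter floor of 3.32, while the dense ones lay above the medians. The log2 difference was 2.48 ± 0.16 (SE, 3 arrays per density), a 5.59-fold increase with an adjusted p of 0.00621. Because the sparse values are near background, the size of this fold is uncertain.

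Fgf7 (probe set 10475643), the gene of keratinocyte growth factor, had values of 11.28, 11.565 and 11.70 in dense cultures on days 1 to 3. In sparse cultures they were 9.60, 9.88 and 10.40. The groups did not overlap: the lowest dense value, on day 1, was above the highest sparse value, on day 3. Fgf7 was 2.93-fold higher (log2 difference 1.55 ± 0.13, adjusted p = 0.00737). The difference was 1.67 and 1.68 on days 1 and 2 and 1.30 on day 3.

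Vegfa (probe set 10451198) had 10.02, 9.82 and 10.11 in dense cultures on days 1 to 3, against 9.04, 8.87 and 8.84 in sparse cultures. Both densities stayed within a narrow band over the days, and the bands lay about 1 unit apart. The difference was 1.07 ± 0.13 (SE, 3 arrays per density), or 2.10-fold, with an adjusted p of 0.0131. On single days it was 0.98, 0.96 and 1.27.

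Figf (probe set 10603099), which encodes VEGF-D, had 7.01, 7.48 and 5.92 in dense cultures on days 1 to 3. Sparse cultures had 5.22, 5.32 and 5.37. Dense cultures were high on the first 2 days, and on day 3 their value came within 0.55 of the sparse one, after differences of 1.79 and 2.16. Over the 3 days Figf was 2.83-fold higher (1.50 ± 0.31, adjusted p = 0.0389), and this call was lost without the day 1 arrays (difference 1.36, adjusted p = 0.0865).

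Angpt1 (probe set 10428376), the gene of angiopoietin-1, had 3.48, 3.57 and 3.49 in dense cultures on days 1 to 3 and 2.89, 2.91 and 2.50 in sparse cultures. The dense values were the higher ones, but all 6 lay below the array medians. The mean of 3.14 was under the floor of 3.32, the 25th percentile of the means of all named genes, so that no test was made and no fold is given.

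Of the genes that were lower in dense cultures, Vegfc (probe set 10571788) differed most. It had 5.80, 5.39 and 5.28 in dense cultures on days 1 to 3, against 7.78, 7.47 and 6.64 in sparse cultures. The lowest sparse value, on day 3, was still above the highest dense value, on day 1. The log2 difference of −1.81 ± 0.18 corresponds to a 3.50-fold decrease (limma adjusted p = 0.00858). It was −1.98, −2.08 and −1.36 on days 1, 2 and 3.

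Hbegf (probe set 10458340) had 8.39, 7.23 and 7.10 in dense cultures on days 1 to 3. Sparse cultures had 9.23, 8.66 and 8.43. The dense value of day 1 came within 0.05 of the sparse value of day 3, and within each day dense was the lower. The difference was −1.21 ± 0.15, or 2.31-fold lower (adjusted p = 0.0142), and without the day as a block its adjusted p was 0.0610.

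Fgf2 (probe set 10491699) had 5.87, 5.53 and 4.80 in dense cultures on days 1 to 3, against 6.63, 6.20 and 6.12 in sparse cultures. The dense value of day 3 stood lowest of the 6. Fgf2 was 1.89-fold lower in dense cultures (−0.92 ± 0.16, adjusted p = 0.0294), with an adjusted p of 0.0628 without the day as a block. The differences of days 1 and 2, −0.76 and −0.67, were smaller than that of day 3, −1.32.

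Pdgfa (probe set 10535043), the gene of the A chain of platelet-derived growth factor, had 7.63, 7.58 and 7.42 in dense cultures on days 1 to 3. Sparse cultures had 8.79, 8.53 and 7.89. The gap narrowed over the days, with differences of −1.16, −0.95 and −0.47. The mean difference was −0.86 ± 0.17, or 1.81-fold lower (adjusted p = 0.0337). The other probe set, 10526880, had 5.57, 5.74 and 6.05 in dense and 6.33, 6.21 and 6.15 in sparse cultures, so that its difference shrank to −0.10 on day 3. With the mean of both probe sets the difference of Pdgfa was −0.65 (adjusted p = 0.0575), and without the day 1 arrays it was −0.71 (adjusted p = 0.0683), both short of the threshold.

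**Figure D2:**
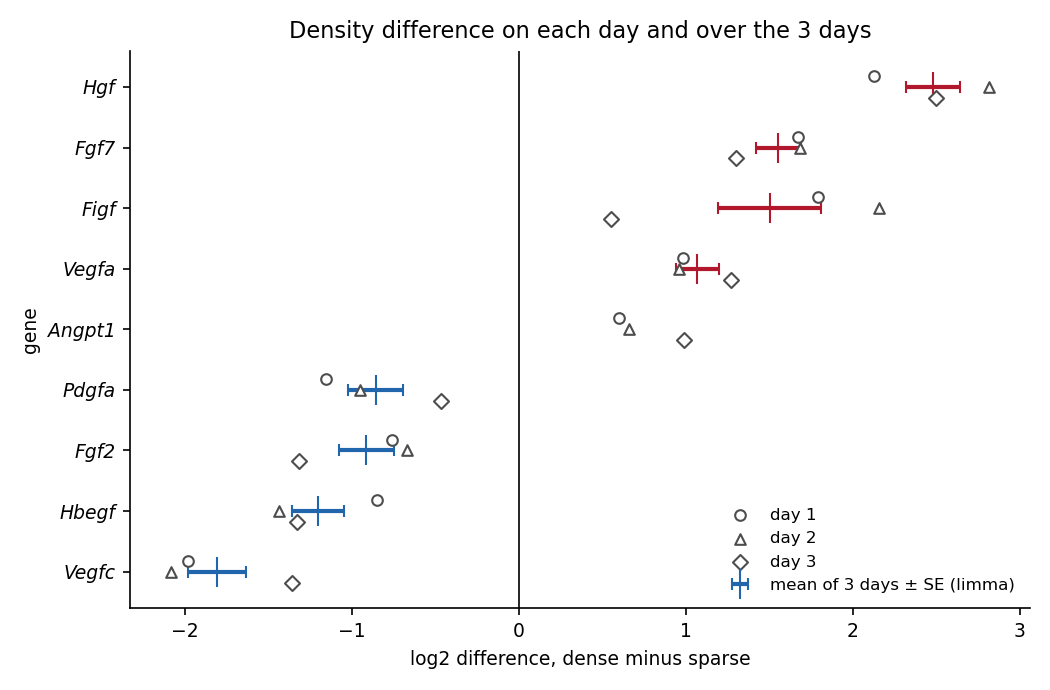
Log2 difference, dense minus sparse (x axis), for each gene: open symbols give day 1 (circle), day 2 (triangle) and day 3 (diamond), and coloured bars the mean of the 3 days ± SE from limma, drawn for the 8 tested genes. Hgf lies farthest to the right at 2.48 and Vegfc farthest to the left at −1.81, and the Figf days are the widest apart.

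On single days, where 1 array per density allows no test, 5 of the 8 tested genes were at least 2-fold apart on day 1, 5 on day 2 and 6 on day 3. Of these, 3 were higher in dense on each day, and 2, 2 and 3 were lower. Among all tested genes 4.37%, 7.18% and 9.34% were as far apart on days 1, 2 and 3. The shares with dense higher were 3.29%, 5.89% and 6.4%, and those with dense lower 1.08%, 1.29% and 2.94%. Hgf, Fgf7 and Vegfc were past 2-fold on each of the 3 days. Figf was past it on days 1 and 2, Hbegf on days 2 and 3, Pdgfa on day 1, and Vegfa and Fgf2 on day 3. The sign of the difference was the same on 3 of 3 days for all 9 genes. The share of all tested genes with such a constant sign was not counted. It is at least the 39.9% whose dense and sparse values did not overlap. By the p-values of the authors' deposited table, which leave the day out, 7 of the 9 genes had p under 0.05, Fgf2 (0.0603) and Hbegf (0.0634) being the exceptions, as had 23.4% of all named genes and 27.5% of the tested ones. That table was made from the same arrays and is not separate support. After Benjamini-Hochberg adjustment of the authors' deposited p-values over the named probe sets, 0 of the 9 passed, with the smallest adjusted p at 0.0943.

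**Figure D3:**
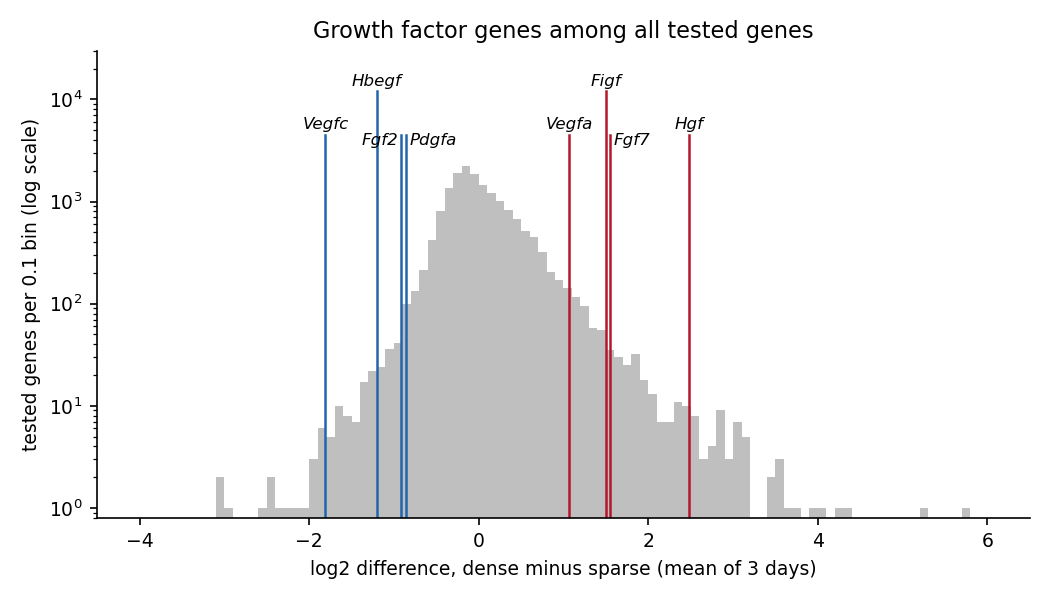
Histogram of the log2 difference, dense minus sparse, of all 16762 tested genes (x axis, in bins of 0.1; y axis, number of genes on a log scale), with a line at each of the 8 tested growth factor genes, red where higher and blue where lower in dense. The lines lie on the flanks of the distribution, from −1.81 for Vegfc to 2.48 for Hgf.

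Over the days, 6 of the 8 tested genes had negative slopes in each density, though 1 passed in dense and 0 in sparse cultures. Slopes were positive for 2 of the 8 in each density, and for 54.2% of all tested genes in dense and 48.0% in sparse cultures. Slopes per day were fitted for each density in a joint limma model. Its error combines the gene's departures from straight lines (2 residual degrees of freedom) with a variance estimated from all tested genes, which counts as 5.17 degrees of freedom. In dense cultures Fgf2 was the single one of the 8 genes to pass, with a fall of −0.54 ± 0.10 per day (log2 units, adjusted p = 0.0359), where 4.34% of all tested genes passed, 1.71% rising and 2.64% falling. At an unadjusted p under 0.05 it was 3 of the 8 genes and 19.8% of all. Hbegf had −0.64 ± 0.15 (adjusted p = 0.0578) and Figf −0.54 ± 0.24 (adjusted p = 0.260). The Hbegf slope was −0.12 without the dense array of day 1 (adjusted p = 0.838) and −1.16 without that of day 3 (adjusted p = 0.00172). Without that of day 2 it was again −0.64 and passed (adjusted p = 0.000116). Each of these 3 slopes joins 2 dense arrays, so its error comes from the sparse arrays and the variance shared by all tested genes. The Figf values do not follow a line, being highest on day 2, and the same holds for Hgf, whose dense slope was −0.12 ± 0.16. The Fgf2 call was lost without the dense array of day 3 (slope −0.34, adjusted p = 0.459). It was also lost without any one of the sparse arrays, where the slope stayed at −0.54 (adjusted p = 0.120). In those runs 0 of all tested genes passed, against 728 with all arrays.

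In sparse cultures 0 of the 8 genes passed in limma's fit, where 0.0776% of all tested genes did (0.0298% rising and 0.0477% falling), and 5 of the 8 had an unadjusted p under 0.05, where 15.8% of all tested genes did. These were Vegfc with −0.57 ± 0.11 per day (adjusted p = 0.123), Pdgfa with −0.45 ± 0.10 (adjusted p = 0.135) and Hbegf with −0.40 ± 0.15 (adjusted p = 0.256). Fgf2 had −0.25 ± 0.10 (adjusted p = 0.299). Fgf7 went the other way with 0.40 ± 0.09 (adjusted p = 0.149). Without any one of the dense arrays, 4 of the 8 passed, Vegfc, Fgf7, Pdgfa and Hbegf, as did 1355 of all 16762 tested genes, against 13 with all arrays. Leaving out the sparse array of day 1 or of day 3 moved these slopes: they were −0.83 and −0.30 for Vegfc, −0.65 and −0.26 for Pdgfa, and −0.23 and −0.57 for Hbegf. For Fgf2 they were −0.078 and −0.43, and for Fgf7 0.51 and 0.28.

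The 4 genes that were lower in dense cultures had negative slopes in both densities, and Fgf7 had positive slopes in both (0.21 ± 0.09 in dense). The difference between the slopes passed for 0 of the 8 genes in limma's fit, with Pdgfa (0.35 ± 0.14, adjusted p = 0.277) the single one at an unadjusted p under 0.05. Among all tested genes 0.191% passed (0.0776% with the higher slope in dense and 0.113% with the lower) and 16.2% had an unadjusted p under 0.05. The widest interval was that of Figf, whose slope difference of −0.62 had 95% limits of −1.40 and 0.16 per day, and without the dense array of day 1 it was −1.64 (adjusted p = 5.78e-05). Without the dense array of day 2 it was again −0.62 and passed (adjusted p = 0.00513). In both runs the dense slope joins 2 arrays, so the dense cultures add nothing to the error behind these p-values. For Vegfa the limits were −0.20 and 0.48 around 0.14.

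**Figure D4:**
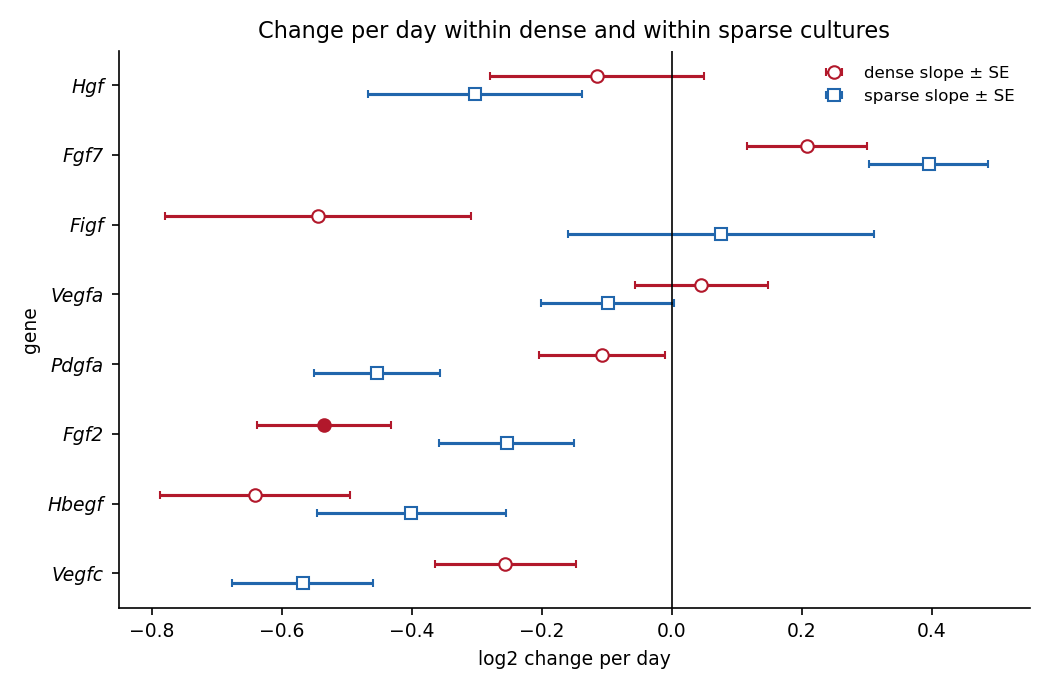
Change per day in log2 units (x axis) of the 8 tested genes in dense (red circles, upper) and sparse cultures (blue squares, lower), as the limma slope ± SE; a filled symbol marks an adjusted p under 0.05. The dense slope of Fgf2 at −0.54 is the single filled symbol.

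Among other ligands of the same families, 23 were tested: 1 was higher and 3 were lower in dense cultures, and the list had a median difference of −0.23 against −0.05 for all tested genes. Of all tested genes 8.26% were higher and 2.9% lower. The higher one was Pdgfd, whose product acts on PDGF receptor beta. It had 6.60, 7.25 and 6.19 in dense and 4.68, 5.31 and 5.80 in sparse cultures on days 1 to 3 (1.42 ± 0.32, adjusted p = 0.0489). The lower ones were the EGF receptor ligand amphiregulin, Areg (−1.24 ± 0.16, adjusted p = 0.0154), placental growth factor, Pgf (−1.06 ± 0.12, adjusted p = 0.0120), and Pdgfb (−0.87 ± 0.15, adjusted p = 0.0281). Pgf binds a VEGF-A receptor, so that within the VEGF family Vegfa and Figf were higher, Vegfc and Pgf lower, and Vegfb, at 0.27, did not pass.

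Of 18 tested receptors and co-receptors, 3 were higher and 1 was lower in dense cultures (all tested genes 8.26% and 2.9%). The PDGF receptors Pdgfra (1.81 ± 0.12, adjusted p = 0.00581) and Pdgfrb (1.27 ± 0.20, adjusted p = 0.0213), both also in the stromal marker list, were higher. Among the PDGF ligands, Pdgfa and Pdgfb were lower, Pdgfd was higher, and Pdgfc, at 0.55 (limma adjusted p = 0.113), did not pass. Pdgfra had 9.37, 9.53 and 9.07 in dense cultures on days 1 to 3, against 7.52, 7.67 and 7.35 in sparse cultures. Met, the HGF receptor gene, was lower (−0.88 ± 0.16, adjusted p = 0.0284) where Hgf was higher. Fgfr2 was higher (1.11 ± 0.16, adjusted p = 0.0185), as was Fgf7, but the probe set does not show which splice form was made. The VEGF receptor genes Flt1, Kdr and Flt4 lay between 3.15 and 3.93 on all 6 arrays, below the array medians, and Tek, which encodes TIE2, was under the filter floor. The co-receptor Nrp1 had 7.91, 7.69 and 5.97 in dense and 6.17, 7.43 and 7.98 in sparse cultures on days 1 to 3, with a mean difference of −0.0021. Its slope in dense cultures passed (adjusted p = 0.0428), and the difference of its slopes did not (adjusted p = 0.0570).

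Proteases and cofactors that release or activate these ligands were called in both directions, with 4 of 16 higher and 2 lower in dense cultures (all tested genes 8.26% and 2.9%). Ccbe1, a cofactor in the activation of VEGF-C, was lower (−1.16 ± 0.11, adjusted p = 0.00869). Adamts3, the protease that cleaves pro-VEGF-C, was higher (0.98 ± 0.20, adjusted p = 0.0365). Ccbe1 also had a slope in dense cultures that passed, at −0.78 per day (adjusted p = 0.0106). Among membrane proteases that can release HB-EGF, Adam12 was lower (−1.18 ± 0.22, adjusted p = 0.0303), Adam9 higher (1.04 ± 0.14, adjusted p = 0.0173) and Adam17 higher (0.60 ± 0.13, adjusted p = 0.0428). The proprotein convertase gene Pcsk6 was higher (1.15 ± 0.19, adjusted p = 0.0242).

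Of 20 tested genes of heparan sulphate, 9 were higher and 1 was lower in dense cultures, with a median difference of 0.50 (all tested genes 8.26%, 2.9% and −0.05). Heparanase, Hpse, which cuts heparan sulphate chains, led with 2.00 ± 0.26 (adjusted p = 0.0150). The sulfatases Sulf2 (1.58 ± 0.25, adjusted p = 0.0232) and Sulf1 (0.88 ± 0.17, adjusted p = 0.0323), which remove sulphate groups from the chains, were higher too. Core proteins among the higher genes were syndecan-4, Sdc4 (1.49 ± 0.13, adjusted p = 0.00721), perlecan, Hspg2 (1.07 ± 0.12, adjusted p = 0.0120), and the glypicans Gpc4 and Gpc6. Glypican-1, Gpc1, was the lower one (−0.98 ± 0.17, adjusted p = 0.0263).

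Vegfa is a known target of low-oxygen signalling. Of 17 tested regulators and targets of that response, 8 were higher and 0 lower in dense cultures in limma's fit, with a median of 0.73 (all tested genes 8.26%, 2.9% and −0.05). The largest were Bnip3 (2.53 ± 0.19), Pdk1 (2.33 ± 0.12), Ddit4 (1.88 ± 0.14) and Ero1l (1.84 ± 0.35), with adjusted p-values from 0.00399 to 0.0330. Oxygen was not measured, and the part of this response in the Vegfa difference was not tested.

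**Figure D5:**
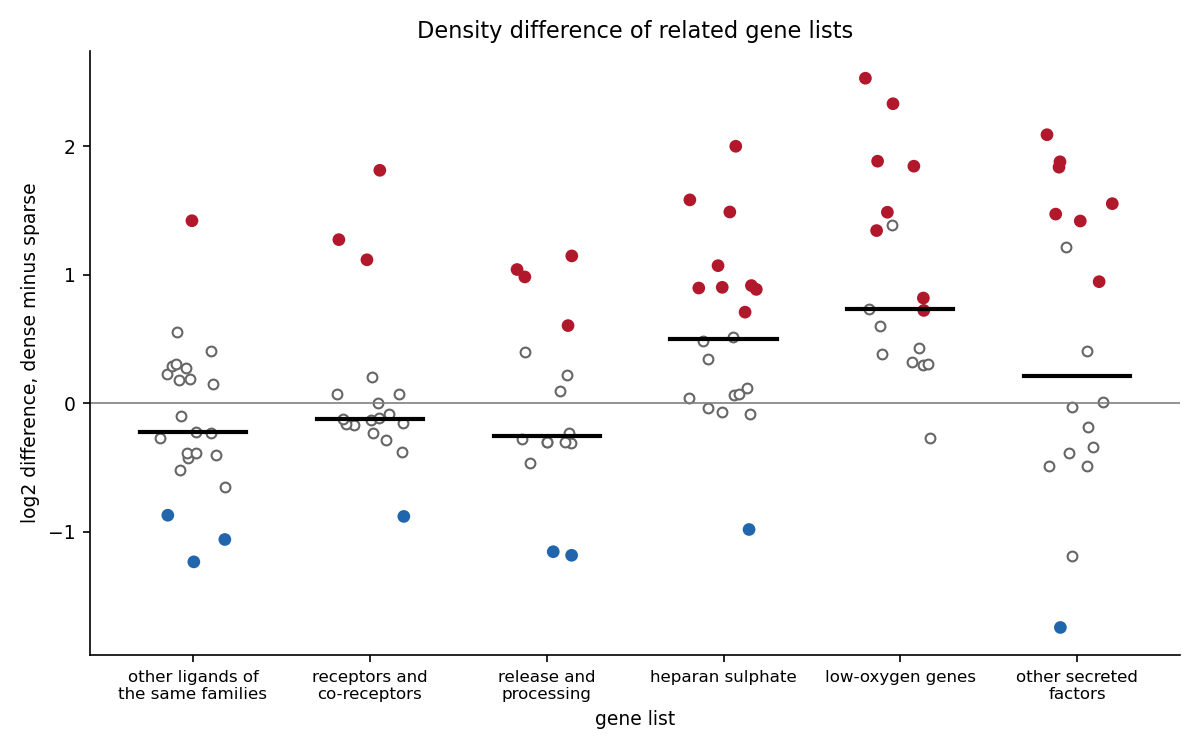
Log2 difference, dense minus sparse (y axis), of each tested gene in 6 gene lists (x axis); filled red or blue points passed as higher or lower in dense at an adjusted p under 0.05, open points did not, and bars give list medians. The list medians run from −0.26 for release and processing to 0.73 for low-oxygen genes.

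For each of the 8 genes, the tested genes with the nearest pattern were found as those with the smallest root mean square difference of centred log2 values over the 6 arrays. Fgf2 had the closest neighbour, the actin-binding protein gene Lasp1, at 0.048 log2 units. The orphan nuclear receptor gene Nr4a1 was nearest to Vegfa at 0.080, and Hrsp12 to Fgf7 at 0.099. For Pdgfa it was Rapsn at 0.099, for Hbegf the receptor gene Lgr6 at 0.10, and for Figf Fam5c at 0.10. The ETS factor gene Etv4 was nearest to Vegfc at 0.13, with values of 5.47, 4.75 and 4.70 in dense and 7.07, 6.82 and 6.11 in sparse cultures on days 1 to 3. Hgf had the most distant nearest gene, the tissue factor gene F3, at 0.22. These are descriptions over 6 arrays that differ mainly by density.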

How the data were processed

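Each deposited log2 value is for 1 probe set on 1 array. RMA and Partek, without versions, are the tools in the submitters' processing notes. Which array model, background step and annotation were used is not given in the sources used here. Differences near background are understated by RMA. Per the file headers, the authors' deposited table holds a p-value and a signed fold score for the density comparison. An unpaired test without the day returned the deposited p-values within 0.00216. A further 6 per-sample columns there were not used.

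Density and day came from the labels. For symbols with several probe sets the one with the highest mean was taken, and genes with a mean at or above the 25th percentile (3.32) were tested, 16762 of 22349. Tests used lmFit and eBayes of limma 3.58.1 (R 4.3.3), with 2-sided p-values adjusted by Benjamini-Hochberg over all tested genes and a threshold of 0.05. The density model had a term for each day and 2 residual degrees of freedom. Slopes were fitted with a level and a slope per density (2 residual degrees of freedom). The day pairs the arrays by the labels; across genes, deviations from the density means had correlations of 0.127, 0.0750 and 0.0674 within a day and −0.150 to 0.109 between days. Precision is limited by the number of arrays. The members, the 6 related gene lists, the marker lists and the tests were chosen with earlier results of these data known. Named list genes are up to 4 of each list with the largest difference. Further list genes, such as VEGF receptors, Nrp1, Vegfb, Pdgfc, Adamts3, Adam17, Sulf1, Gpc1, Gpc4 and Gpc6, were named after their values were seen. One gene that the naming rule picks is not reported here. Each fit was first tested on simulated data.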

Additional observations from a re-analysis of the deposited data

How the results depend on the processing

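For dense against sparse, the direction of all 9 genes held under each alternative run that covered them. Angpt1 was covered by 2 of these, without the filter and by the deposited fold change, which both rest on the same difference of means. The number called ran from 6 to 9 of these genes (9 with no filter, with Angpt1, whose sparse values lay below the filter floor) under renormalization, other filters, other uses of probe sets, a variance trend and without the day as a replicate block (6 called, 2218 of all tested genes). Leaving out the arrays of 1 day gave 0 to 8 genes and, of all tested genes, 0 to 2522, against 1870. The authors' deposited p-values after adjustment gave 0. Median centring changed the share of rising calls among dense slopes to 24.5%, against 39.3%, and the share of slope differences called higher in dense to 22.2%, against 40.6%. For the sparse slope that share was 25% of 4 calls, against 38.5% of 13. For the dense slope, leaving out 1 array gave 0 to 3 of the 8 genes, against 1, and 0 to 2402 of all tested genes, against 728. For the sparse slope it gave 0 to 4, against 0, and 0 to 1355 of all tested genes, against 13; median centring, no filter and a filter at the median gave 4 each, single probe sets 48 and a variance trend 25. For the slope difference it gave 0 to 1, against 0, and 0 to 1740 of all tested genes, against 32. There, quantile normalization gave 16, median centring 18, no filter 5, a filter at the median 4, single probe sets 56 and a variance trend 84. With 1 array left out, 1 residual degree of freedom remains, all of it from the other density where a slope rests on 2 arrays. Slopes that changed sign had not passed: in dense cultures Vegfa with median centring (−0.013) and Pdgfa with the mean of its probe sets (0.067). Without the dense array of day 3 the dense slopes of Vegfa (−0.19), Hgf (0.52) and Figf (0.47) and the slope differences of Vegfa (−0.10) and Figf (0.39) changed sign. Without that of day 1 so did the slope differences of Hgf (−0.45) and Hbegf (0.28). Over single arrays left out, dense slopes ran from −0.19 to 0.29 for Vegfa, −0.75 to 0.52 for Hgf and −1.56 to 0.47 for Figf. Slope differences ran from −0.10 to 0.38 for Vegfa, −0.45 to 0.82 for Hgf, −0.76 to 0.28 for Hbegf and −1.64 to 0.39 for Figf. The cause of these changes was not tested. With a filter at the median, Hgf and Angpt1 were not tested. Low signal limits Angpt1 and the sparse values of Hgf.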

Other observations

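Among 18 further secreted factors described for stromal cells, 7 were higher and 1 was lower in dense cultures (all tested genes 8.26% and 2.9%). Il6, the gene of interleukin-6, had 4.88, 5.15 and 4.93 in dense cultures on days 1 to 3, against 2.91, 3.07 and 2.71 in sparse cultures. Its 3 sparse values lay below the filter floor of 3.32, so that it passed the filter through the dense arrays, and no difference or test is given for it, though it is counted among the 7. Pleiotrophin, Ptn, was higher in dense cultures (1.84 ± 0.36, adjusted p = 0.0352), with 7.38, 8.28 and 7.59 in dense and 5.08, 5.76 and 6.91 in sparse cultures. Igf1 was at 1.88 ± 0.43 (limma adjusted p = 0.0489), with 7.14, 7.63 and 6.18 in dense and 4.74, 4.89 and 5.68 in sparse cultures. Its densities lay closest together on day 3. In the limma fit 11.2% of all tested genes passed between the densities.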
